A study of Homo sapiens with 4 samples.

Results

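The genes described here are 44 genes of G2 and mitosis, the part of the cell cycle in which a cell prepares to divide and then separates its chromosomes. Members were taken by gene symbol, as the probesets whose annotation names exactly 1 of the 44 genes, with CDK1 and DLGAP5 listed under their older names CDC2 and DLG7. A probeset is a small group of probes that reads about 1 exon. The array annotation gave probesets for 43 of the 44, among 15719 genes tested in all, and CKS1B was not analysed here. All samples were T-47D, an established luminal breast cancer line, so every value belongs to a single cell line. For 2 arrays the cells had received a mimic (200 nM) of the artificial microRNA p-27-5p. Those of the other 2 arrays received a pre-miR negative control, with no dose of its own in the labels. Mimic and control samples are called paired, though the labels do not say what a pair shares. TurboFect reagent was used for transfection, and the labels give neither the time to RNA extraction nor whether repeats were separate cultures. All p-values therefore rest on array-to-array spread that may be technical alone.

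Entry into mitosis is driven by CDK1 bound to cyclin B, whose activity is held back by phosphorylation and released by CDC25 phosphatases. Aurora and Polo-like kinases then build the spindle, the spindle checkpoint delays anaphase until every kinetochore is attached, and the anaphase-promoting complex destroys securin and cyclin B to let chromosomes part. Transcripts of many of these genes are low in G1 and climb together towards mitosis under FOXM1, B-MYB and the MuvB complex, and are repressed in non-dividing cells by the DREAM complex. In bulk RNA such as this, fewer cells in G2 or mitosis and less of a transcript per cell cannot be told apart.

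Because these genes are known to share promoter elements, the upstream sequences of 5 members are shown, 3 with both elements searched for and 2 with 1 of them. The window of HMMR is chr5:163460382-163460631, that of CDC20 chr1:43358731-43358980, of CCNB2 chr15:59104896-59105145, of ANLN chr7:36389612-36389861 and of CCNB1 chr5:69166900-69167149. These are the 250 bases before the annotated gene start, all on the plus strand, from RefSeq on build GRCh38.p14, written 5′ to 3′. Capitals mark every TTTGAA, the core of the cell cycle genes homology region (CHR) that the MuvB complex binds, and every CCAAT, the box bound by NF-Y, on either strand, so that TTCAAA and ATTGG are the same motifs on the other strand.
HMMR: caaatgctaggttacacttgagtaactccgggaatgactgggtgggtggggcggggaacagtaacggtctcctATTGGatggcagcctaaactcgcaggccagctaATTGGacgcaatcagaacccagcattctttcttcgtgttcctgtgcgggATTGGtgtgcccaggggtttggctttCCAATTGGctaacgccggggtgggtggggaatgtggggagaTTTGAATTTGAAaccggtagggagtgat
CDC20: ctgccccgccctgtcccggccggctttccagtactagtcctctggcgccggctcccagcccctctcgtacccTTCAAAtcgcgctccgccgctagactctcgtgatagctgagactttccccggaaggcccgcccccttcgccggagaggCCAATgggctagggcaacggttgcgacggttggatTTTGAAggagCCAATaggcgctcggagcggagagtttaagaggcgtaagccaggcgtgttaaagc
CCNB2: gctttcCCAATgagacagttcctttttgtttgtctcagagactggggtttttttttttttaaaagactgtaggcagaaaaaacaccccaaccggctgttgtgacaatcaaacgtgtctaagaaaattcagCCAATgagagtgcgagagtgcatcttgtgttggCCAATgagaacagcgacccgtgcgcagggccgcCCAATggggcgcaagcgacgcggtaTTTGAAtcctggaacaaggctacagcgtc
ANLN: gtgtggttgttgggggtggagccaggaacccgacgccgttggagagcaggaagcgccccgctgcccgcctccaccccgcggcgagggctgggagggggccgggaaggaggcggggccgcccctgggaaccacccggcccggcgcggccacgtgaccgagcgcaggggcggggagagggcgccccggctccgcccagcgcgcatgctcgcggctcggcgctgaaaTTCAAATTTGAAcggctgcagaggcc
CCNB1: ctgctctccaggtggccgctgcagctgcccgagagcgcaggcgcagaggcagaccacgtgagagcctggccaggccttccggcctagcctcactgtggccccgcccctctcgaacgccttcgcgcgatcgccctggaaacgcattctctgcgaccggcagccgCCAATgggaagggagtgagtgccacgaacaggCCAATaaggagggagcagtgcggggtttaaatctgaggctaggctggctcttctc

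RefSeq windows of 300 bases, from 250 before to 50 after a gene start, were matched for 36 of the 44 members, and none was matched for TPX2, BIRC5, PBK, AURKA, BUB3, TTK, UBE2C and FOXM1. TTTGAA stood in a window of 27 of these 36 genes (75.0%), against 4961 of all 27305 genes with a window (18.2%). For CCAAT the counts were 28 of 36 (77.8%) against 10846 of 27305 (39.7%), and both motifs were found for 21 members (58.3%) against 7.26% of all genes. Some genes have several starts. Counted per window, TTTGAA was present in 30 of 47 member windows (63.8%) and in 15.2% of all 35116 windows, and CCAAT in 33 of 47 (70.2%) and in 34.6%. The E2F-like motif GGCGGGAA was in a window of 2 members (5.56%) and of 3.79% of all genes. TTTGAA and CCAAT, on whichever strands, can share at most 1 base, and CCAATTGG in HMMR counts as CCAAT on both strands. HMMR holds TTTGAA back to back, its copies starting at -28 and -22 relative to the gene start. CDC20 holds it at -65 and, on the other strand, at -178, and CCNB2 at -29. In ANLN the pair at -26 and -20 faces opposite ways and no CCAAT was found, while CCNB1 holds CCAAT at -87 and -55 and no TTTGAA in this window. The windows of KIF2C and CENPE held neither TTTGAA nor CCAAT. Measured members with TTTGAA had a median difference between mimic and control of -0.36 on the log2 scale (26 genes), and those without it -0.34 (9 genes). For CCAAT the medians were -0.34 (27 genes) and -0.42 (8 genes). A match is a run of letters and says nothing of binding in these cells.

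All levels below are log2 signals, a gene's level being the mean of its probesets above a floor of 4.08. A difference is the mimic mean minus the control mean (log2), with n = 2 arrays a group, and p-values come from limma across all 15719 genes with Benjamini-Hochberg adjustment. Array values correlated with r = 0.985 within the mimic group, 0.984 within the control group and 0.966 to 0.973 between groups. Arrays differed in the spread of their signals, with interquartile ranges of 4.18 and 4.32 for the mimic and of 4.25 and, in replicate 2, 4.52 for the control. Luminal markers fitted the label, since the control levels of 9 (ESR1, PGR, GATA3, FOXA1, KRT8, KRT18, KRT19, XBP1, EPCAM) lay between 8.97 and 12.40. Another 9 markers of basal, stromal and blood cells lay between 4.52 and 6.83, partly within the range, up to 5.71, of 14 liver and neuron genes taken as background. Between the groups, 7 of the 9 luminal markers were below 0 (median -0.21) and 8 of the other 9 above 0 (median 0.26). Of either set 0 were called, and 3 were lower and 2 higher at an unadjusted p under 0.05 (all genes 12.8% and 7.65%). Their part in the results below was not tested. In both groups all 43 measured members lay above the background range.

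None of the 43 members passed an adjusted p of 0.05 in either direction, while 0.789% of all genes were called lower and 1.52% higher. At an unadjusted p under 0.05, 14 of the 43 were lower, against 12.8% of all genes, and 0 were higher, against 7.65%. The groups separated downwards, every mimic value below every control value, for 33 members, or 76.7%, against 29.5% of all genes, and 0 members showed the opposite separation, found in 20.5% of all genes. Of the members, 42 had a difference below 0, a sign that 49.7% of all genes had. The differences were small and close together: their quartiles were -0.40 and -0.26 around a median of -0.32, against a median of 0.00 over all genes. Only KIF2C, HMMR, ANLN and BUB1B reached -0.5, which is 9.30% of the members and little more than the 6.44% of all genes that did. With the brightest probeset of each gene in place of the mean, the median of the members was -0.18. The 0.00 over all genes belongs to the mean of the probesets and is no background for that value.

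**Figure D1:**
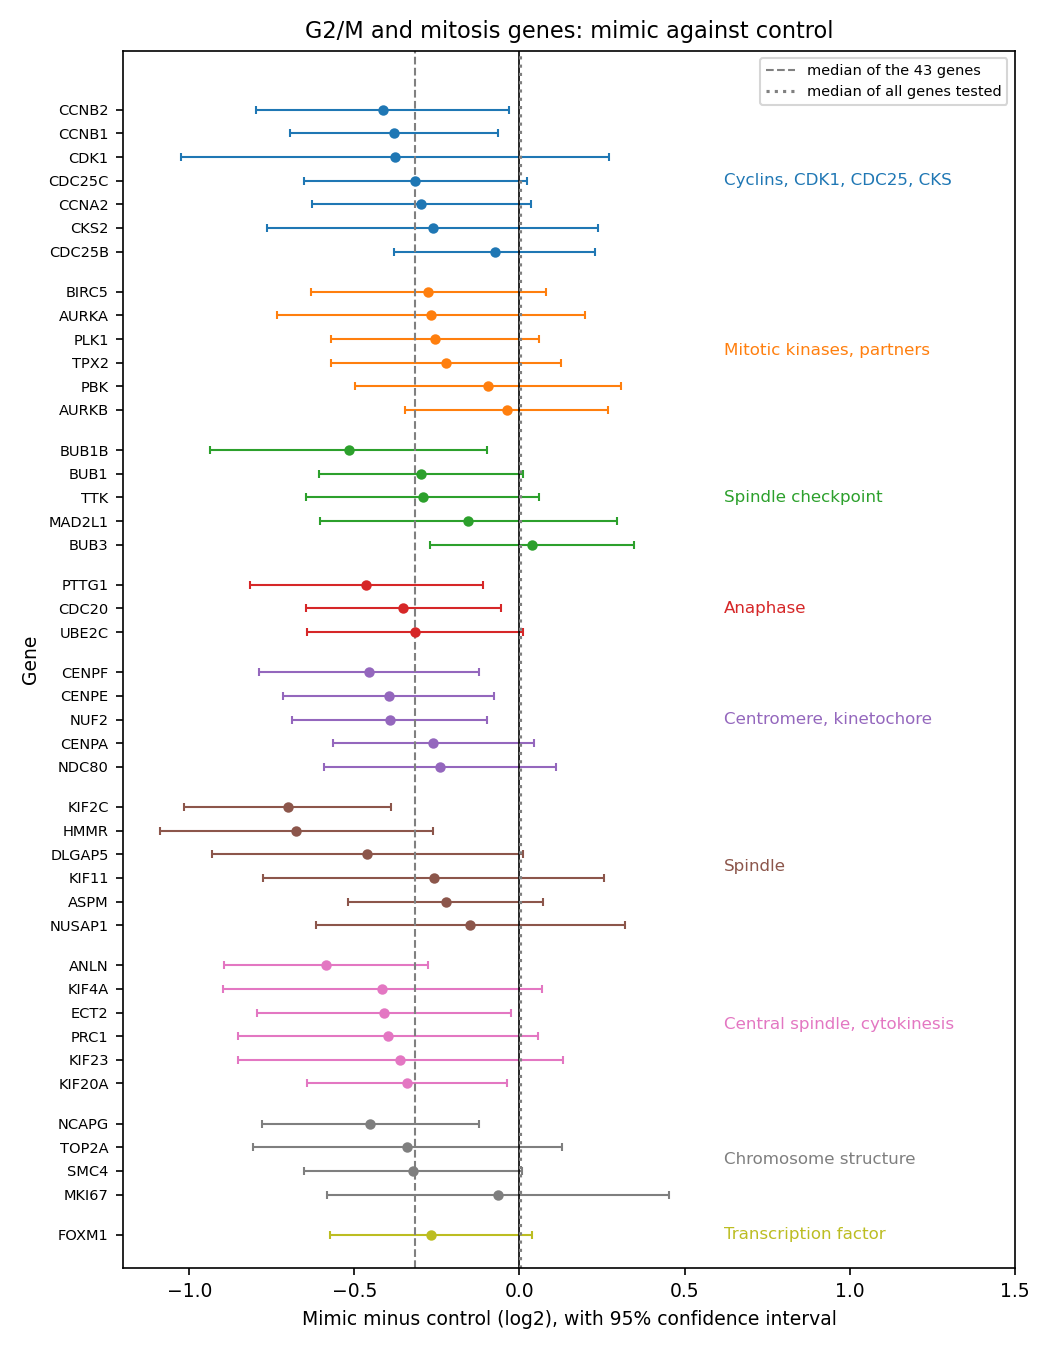
Mimic minus control difference (log2) of each of the 43 measured genes, grouped by role; points are the fitted differences and bars are 95% confidence intervals from limma, with 2 arrays a group. All points but BUB3 lie left of 0, around the median of -0.32 (dashed), and 14 intervals do not reach 0.

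The cyclins, CDK1 and the proteins that act on them had differences between -0.41 and -0.07 in 7 measured genes. Of these, 2 were lower at an unadjusted p under 0.05, against 12.8% of all genes. CCNB1, the cyclin B that carries CDK1 into mitosis, read 11.38 and 11.45 with the mimic and 11.74 and 11.86 with the control. Every mimic value was below every control value. The difference was -0.38 (SE 0.125, 95% confidence interval -0.70 to -0.06), a 1.30-fold lower level with an adjusted p of 0.181. CCNB2, the related cyclin at the Golgi and cytoplasm, had -0.41 (SE 0.151, adjusted p = 0.216). CDK1 itself read 9.49 and 10.04 with the mimic and 9.89 and 10.39 with the control. Here the groups overlapped, and replicate 2 exceeded replicate 1 by 0.55 among mimic and by 0.50 among control arrays, each more than the groups' difference of -0.38 (SE 0.256, adjusted p = 0.474). Arrays of the same number differed by -0.40 and -0.35, and with the replicate number as a block the adjusted p was 0.0835. That block also lowered the adjusted p of AURKA (0.478 to 0.130) and TOP2A (0.377 to 0.0939). With it 0 members were called lower (all genes 1.24%). CCNA2, the cyclin of S phase and early mitosis, had -0.30, and CDC25C, which removes the inhibitory phosphates from CDK1, had -0.31. CKS2, a small subunit that helps CDK1 dock on its substrates, had -0.26 with overlapping groups. CDC25B, the phosphatase that starts CDK1 activation, was the nearest to 0 of these genes, with -0.07 (SE 0.120, interval -0.38 to 0.23).

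Among the mitotic kinases and their partners, the median was -0.24. At an unadjusted p under 0.05, 0 of 6 were lower (all genes 12.8%). PLK1, the Polo-like kinase of centrosome maturation and mitotic entry, had 10.44 and 10.52 on mimic and 10.68 and 10.79 on control arrays. The 4 values separated by group, with a difference of -0.26 (SE 0.124, adjusted p = 0.326). AURKA, the Aurora kinase of spindle poles, had 9.79 and 10.15 against 10.09 and 10.38. Mimic replicate 2 stood above control replicate 1, and the difference of -0.27 (SE 0.185, adjusted p = 0.478) was smaller than the gap of 0.36 between the mimic arrays. TPX2, which activates AURKA on microtubules, had -0.22. AURKB, the Aurora kinase of the chromosomal passenger complex, read 9.02 and 9.12 against 9.09 and 9.13. Its values were interleaved, the difference being -0.04 (SE 0.121, interval -0.35 to 0.27, adjusted p = 0.886) and 0.025 with cyclic loess normalization. Of its 9 probesets 7 were below 0 and 1 stood at 1.31. The difference was -0.45 when each array's level was the median, not the mean, of the probesets. BIRC5, or survivin, a partner of AURKB in that complex, had -0.28, and the kinase PBK had -0.09 with overlapping groups.

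The spindle checkpoint genes ranged from -0.52 to 0.04, with 1 of 5 lower at an unadjusted p under 0.05 (all genes 12.8%). BUB1B encodes BUBR1, the checkpoint protein that holds CDC20 inactive. Its levels were 7.39 and 7.67 on mimic and 7.92 and 8.18 on control arrays. All mimic values were below all control values, although arrays also differed by 0.28 and 0.27 within the groups, and the difference was -0.52 (SE 0.166, adjusted p = 0.174). The kinase BUB1 had -0.30 and the kinase TTK, also called MPS1, had -0.29, both without overlap. MAD2L1, which encodes MAD2 and was read by 2 probesets, had -0.16, with mimic replicate 1 at 8.36 above both control arrays (8.27 and 8.32). BUB3, the scaffold that brings BUB1 and BUBR1 to kinetochores, had 10.51 and 10.56 with the mimic and 10.44 and 10.55 with the control. It was the 1 member above 0, by 0.04 (SE 0.122, interval -0.27 to 0.35, adjusted p = 0.893), and had -0.016 without control replicate 1.

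The 3 genes of anaphase separated downwards by group, as 29.5% of all genes did. PTTG1, or securin, which inhibits separase until anaphase, read 10.73 and 10.55 against 11.02 and 11.19. Both mimic values lay below both controls, with a difference of -0.46 (SE 0.139, adjusted p = 0.158). It rests on 2 probesets, and probes of this gene may also read its near-identical copies. CDC20, the activator of the anaphase-promoting complex, gave 10.34 and 10.36 with the mimic and 10.71 and 10.70 with the control. Repeats of a group differed by at most 0.02, far less than the -0.35 between groups (SE 0.117, adjusted p = 0.185). UBE2C, the ubiquitin-conjugating enzyme of the same complex, had -0.32 (adjusted p = 0.257).

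All 5 centromere and kinetochore genes separated downwards by group (all genes 29.5%). At an unadjusted p under 0.05, 3 were lower (all genes 12.8%). CENPF, a large protein of the outer kinetochore, read 9.02 and 9.08 with the mimic and 9.41 and 9.60 with the control. The gap of 0.33 between the nearest arrays of the groups was wider than the gap inside either group, and the difference was -0.46 (SE 0.132, adjusted p = 0.148). NUF2, a subunit of the NDC80 complex that grips microtubules, had 8.96 and 8.94 against 9.34 and 9.35. Repeats differed by at most 0.02, and the difference was -0.39 (SE 0.117, adjusted p = 0.154). CENPE, the kinesin that moves chromosomes to the spindle equator, gave 6.56 and 6.40 against 6.86 and 6.89. That was lower on both mimic arrays, by -0.40 (SE 0.126, adjusted p = 0.173). NDC80 had -0.24, and CENPA, the histone H3 variant that marks centromeres, had -0.26.

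Spindle genes ranged from -0.70 to -0.15, and 2 of 6 were lower at an unadjusted p under 0.05 (all genes 12.8%). KIF2C, a kinesin that takes microtubules apart to correct wrong attachments, read 7.84 and 7.87 on mimic arrays and 8.49 and 8.62 on control arrays. Its groups stood 0.62 apart at their nearest arrays. The mean level was 7.85 ± 0.0199 (SD, n = 2) with the mimic and 8.55 ± 0.0974 (SD, n = 2) with the control, 1.63-fold lower, for a difference of -0.70 (SE 0.124, interval -1.02 to -0.39). Its adjusted p of 0.0630 was the smallest among the members. It passed with quantile normalization (0.0448), without the floor on dim probesets (0.0118) and with an intensity trend (0.00662). HMMR, a protein that helps to shape the spindle poles, had 8.47 and 8.45 against 8.95 and 9.32. Control replicate 2 was well above control replicate 1, while the mimic arrays differed by 0.02, and the difference was -0.68 (SE 0.163, adjusted p = 0.110). It was -0.49 without control replicate 2 and -0.86 without control replicate 1. HMMR passed without the floor (adjusted p = 0.0209) and with an intensity trend (0.0180). On their brightest probesets KIF2C had -0.33 and HMMR -0.27. DLGAP5, which bundles kinetochore microtubules, had -0.46 (adjusted p = 0.252). ASPM, of the spindle poles, had -0.22, KIF11, the motor that pushes spindle poles apart, -0.26, and NUSAP1, which bundles microtubules near chromatin, -0.15, the last 2 with overlapping groups.

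All 6 genes of the central spindle and cytokinesis separated downwards by group (all genes 29.5%), with differences from -0.59 to -0.34. ANLN, the anillin scaffold of the cleavage furrow, read 10.01 and 10.02 against 10.54 and 10.66. Mimic arrays were nearly equal and stood 0.52 below the lower control array, for a difference of -0.59 (SE 0.122, adjusted p = 0.0848). ANLN passed without the floor (0.0174) and with an intensity trend (0.00669). KIF20A, a kinesin that carries the passenger complex to the midzone, had 8.89 on both mimic arrays and 9.19 and 9.28 on control arrays. The groups were apart by more than the spread of either, at -0.34 (SE 0.120, adjusted p = 0.202). ECT2, the RhoA exchange factor that places the furrow, had -0.41 (adjusted p = 0.221). PRC1, which crosslinks midzone microtubules, had -0.40. KIF4A, which sets midzone length, had -0.42, and its probes may also read the retrocopy KIF4B. KIF23, of the centralspindlin complex, had -0.36. In PRC1, KIF4A and KIF23 the repeats of each group lay 0.25 to 0.39 apart.

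The genes of chromosome structure differed among themselves. NCAPG, a condensin subunit, read 8.91 and 9.09 with the mimic and 9.42 and 9.48 with the control. The groups did not overlap, and the difference was -0.45 (SE 0.130, adjusted p = 0.146). SMC4, the ATPase of condensin, had -0.32. TOP2A, the topoisomerase that untangles sister chromatids, had 10.32 and 10.62 against 10.63 and 10.99. Mimic replicate 2 and control replicate 1 nearly met, and the difference was -0.34 (SE 0.185, adjusted p = 0.377). MKI67, the proliferation marker Ki-67 that coats mitotic chromosomes, had 8.63 and 8.95 against 8.63 and 9.08. Repeats differed by 0.32 and 0.45, and the difference was -0.07 (SE 0.205, interval -0.58 to 0.45, adjusted p = 0.887). It was 0.09 without mimic replicate 1, 0.16 without control replicate 2, 0.0084 with cyclic loess and 0.013 on the brightest probeset. FOXM1, the transcription factor that drives many of these genes, had 9.14 and 9.19 against 9.39 and 9.48. Its 4 values separated by group, at -0.27 (SE 0.121, adjusted p = 0.296).

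**Figure D2:**
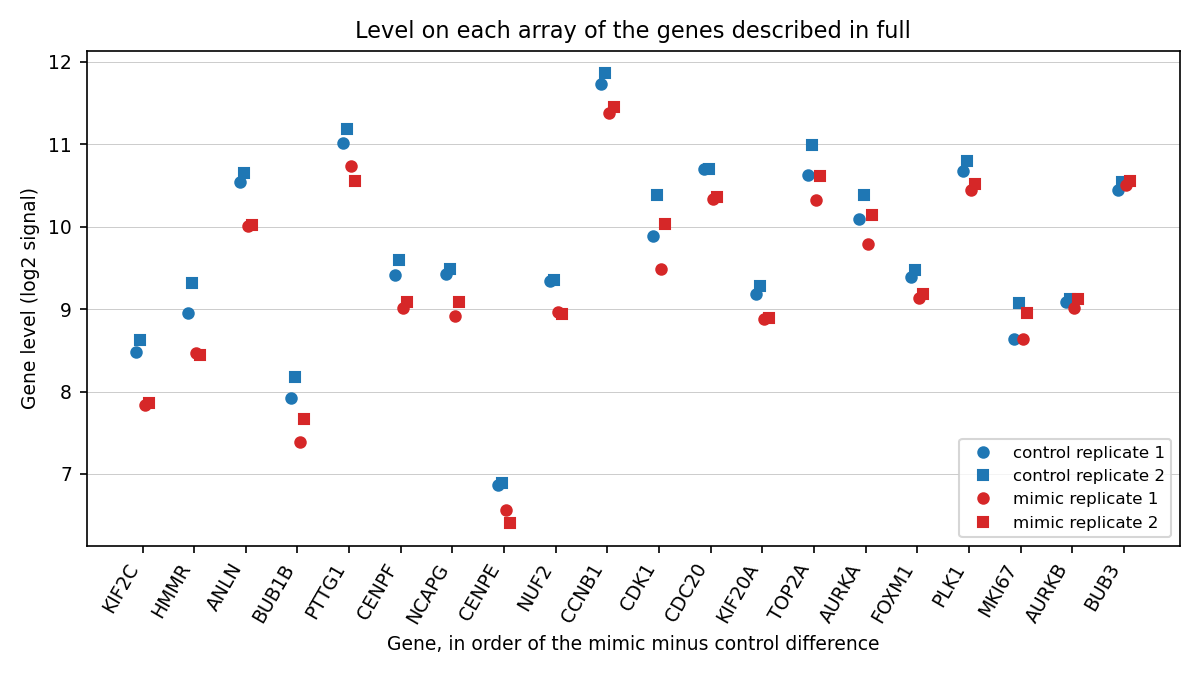
Level (log2 signal) on each array of the 20 genes described in full, ordered by difference; circles are replicate 1 and squares replicate 2, blue for control and red for mimic. Red lies below blue for KIF2C, HMMR and ANLN, while for CDK1, AURKA, AURKB, MKI67 and BUB3 the colours overlap.

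Arrays of 1 group also differed from each other. Across the 43 members, control replicate 2 held the highest value for 39 and mimic replicate 1 the lowest for 33. Of all 15719 genes the same arrays did so for 5124 and 4284. Control replicate 1 was below control replicate 2 for 41 members (all genes 51.1%), with a median gap of -0.17. Mimic replicate 1 was below mimic replicate 2 for 35 (all genes 50.6%), with a median gap of -0.08. Over all genes those gaps were -0.0072 and -0.0036. Between groups the median member difference was -0.19 for mimic replicate 2 against control replicate 1, below 0 for 34 members. Over all genes that median was -0.06, with 58.1% below 0. For mimic replicate 1 against control replicate 2 the member median was -0.45, below 0 for 42 (all genes 49.9%). Arrays of the same number gave -0.30 for replicate 1, with 40 members below 0 (all genes 54.5%). They gave -0.35 for replicate 2, with 42 (all genes 49.1%), and 40 were below 0 in both. In 34 members replicate 2 was the higher array in both groups. For 14 members the gap between arrays of a group was larger than that between group means. With 1 array left out the median stayed between -0.41 and -0.22, and 39 to 43 members were below 0. Calls with an array left out are not counted here, since 1 group then has 1 array and the share of all genes called varied. With an intensity trend in the variance prior 9 members were called lower (20.9%, against 6.79% of all genes): CCNB1, CDC20, CENPF, NCAPG, NUF2 and PTTG1 with KIF2C, ANLN and HMMR. With quantile normalization, which gives all arrays 1 spread of signals, the median was -0.27, with 42 members below 0 and 33 separated.

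**Figure D3:**
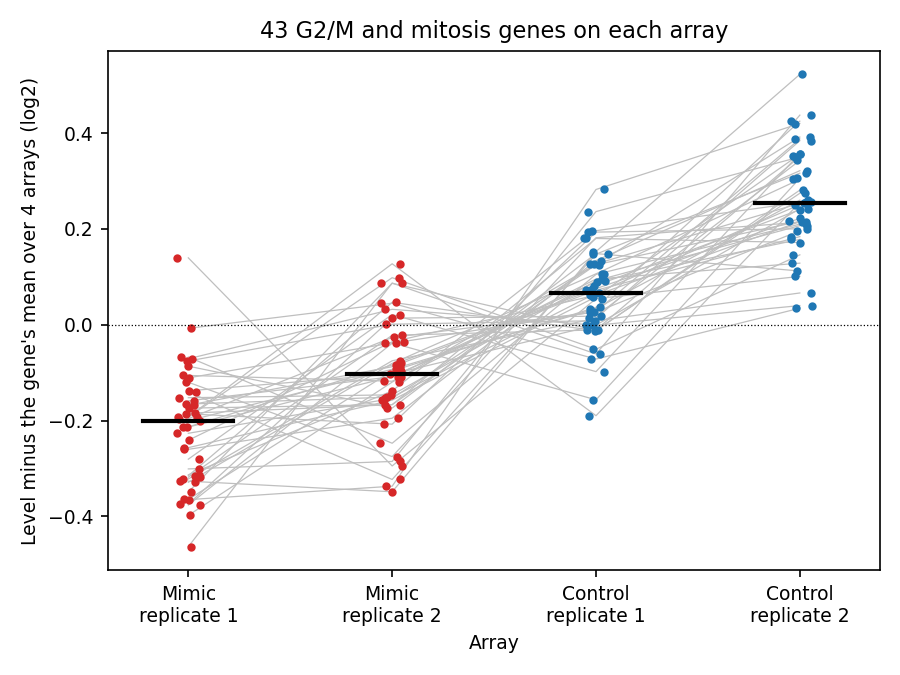
Level of each of the 43 genes on each array, minus that gene's mean over the 4 arrays (log2); grey lines join a gene and black bars are medians. The medians are -0.20 and -0.10 for the mimic replicates and 0.07 and 0.25 for the control replicates, so repeats differ as well as groups.

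The 43 genes were read by 765 probesets above the floor, from 2 for CDC20, MAD2L1 and PTTG1 to 53 for CENPE. Probesets of a gene share its RNA and are not replicates. Of the 765, 672 had a difference below 0 (87.8%), against 53.1% of all probesets, and 443 separated downwards (57.9%), against 26.8%. Only 19 separated upwards, as 21% of all probesets did. By level, the share separated downwards was 39.6% under 6 (all probesets 17.8%) and 51.7% from 6 to 8 (27.3%). It was 59.3% from 8 to 10 (32.4%) and 63.0% at 10 and over (36.7%). In limma's test of single probesets 1 was called lower, against 0.0881% of all probesets. It lies in CENPE, with 4.53 and 4.41 on mimic and 6.05 and 5.96 on control arrays (difference -1.54, adjusted p = 0.0446). The call did not hold with any array left out, and the mimic values of this probeset lie within the background range. The size of its difference is therefore not measured. For 14 genes every probeset was below 0. All 21 probesets of KIF2C were below 0 and separated by group. In ANLN all 28 were below 0 and 27 separated, and in HMMR all 18 were and 16 did. TOP2A had all 37 below 0, of which 21 separated, and CCNB1 all 13, of which 11 did. At the other end 4 of 12 were below 0 in BUB3, 11 of 19 in CDC25B and 18 of 28 in MKI67. Dimmer probesets had the larger median differences. A smaller share of those under 6 was below 0, 72.9% against 89.0% at 10 and over (all probesets 45.4% and 59.3%). The median was -0.27 for the 273 member probesets at 10 and over, -0.33 from 8 to 10, -0.37 from 6 to 8 and -0.38 for the 48 under 6. For all probesets in the same classes it was -0.06, -0.06, -0.06 and 0.05. The brightest probeset of a gene was below 0 for 35 members, among them ANLN with -0.53, BUB1B with -0.48 and CCNB1 with -0.18. It was above 0 for NDC80 (0.13), CDK1 (0.10), CDC25B (0.056), KIF11 (0.049), CENPF (0.035), ASPM (0.030), BUB3 (0.018) and MKI67 (0.013). The share of all genes with a brightest probeset below 0 was not computed.

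**Figure D4:**
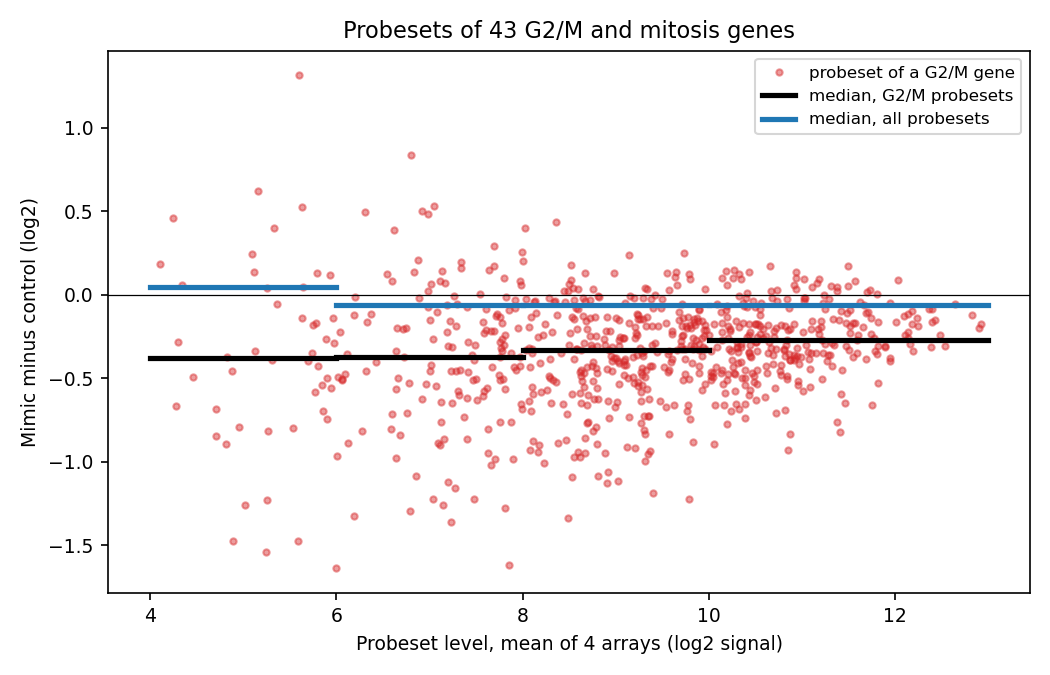
Mimic minus control difference (log2) of the 765 probesets of the 43 genes, by probeset level (mean of 4 arrays, log2 signal); black bars are member medians and blue bars medians of all probesets in 4 classes of level. The member medians lie between -0.38 and -0.27, below the blue bars in each class.

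Other genes of mitosis that are not among the 44 were set beside them. Of 112 listed, 103 were measured. CENPM, a protein of the inner centromere network, fell: it read 7.15 and 7.26 with the mimic and 7.99 and 8.05 with the control, a difference of -0.81 (SE 0.122, adjusted p = 0.0442). It was the 1 related gene called lower (1 of 103, against 0.789% of all genes), and 0 were called higher. The call was lost with equal array medians and with the median or the brightest of the probesets. In those settings 0.56%, 0.35% and 0.0445% of all genes were called lower. The call did not hold with every array left out. The number of related genes called in those fits varied, as did the share of all genes called. At an unadjusted p under 0.05, 35 were lower (34.0%, against 12.8% of all genes) and 2 higher, 69 separated downwards (67.0%, against 29.5%), and the median was -0.27. By role, the median was -0.32 for 29 kinetochore genes (12 lower at an unadjusted p under 0.05), -0.36 for 19 of spindle and cytokinesis (9 lower) and -0.35 for 9 of the checkpoint and passenger complex (4 lower). It was -0.27 for 15 of condensin and cohesin and for 10 of mitotic entry (3 lower each), and -0.25 for 5 of MuvB and B-MYB (1 lower). The anaphase-promoting complex and its regulators had -0.17 over 16 genes, with 3 lower and 1 higher.

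In the other roles the gene with the smallest p did not pass. MYBL2, which encodes B-MYB, the partner of MuvB in activating mitotic genes, had -0.74 (adjusted p = 0.0637). NCAPH of condensin had -0.59 (0.0828), DEPDC1 -0.53 (0.108), CDC25A, the phosphatase of CDK2 and CDK1, -0.52 (0.117) and SGO1, or shugoshin, which guards centromeric cohesion, -0.47 (0.123). ANAPC11, the catalytic RING subunit of the anaphase-promoting complex, had -1.40 and its subunit ANAPC4 had 1.08, both with an adjusted p of 0.0634 and both read by 1 probeset. ANAPC4 and MASTL, the Greatwall kinase that keeps mitotic phosphatases off, were chosen after their values were seen. MASTL had 0.47 (adjusted p = 0.201) and, with ANAPC4, was the other gene higher at an unadjusted p under 0.05.

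DNA replication genes, which act in the S phase just before, had larger differences than the mitotic genes. Of 29 measured, 27 were below 0 (all genes 49.7%), 27 separated downwards (all genes 29.5%), and 23 had an unadjusted p under 0.05 in that direction (all genes 12.8%). The other 2, RRM2 (0.27, adjusted p = 0.359) and PCNA (0.04, adjusted p = 0.871), separated upwards (all genes 20.5%). MCM6, a subunit of the replicative helicase, and GINS2 and GINS4, of its GINS partner complex, fell, by 0.93, 1.08 and 1.04 on the log2 scale (adjusted p = 0.0264, 0.0327 and 0.0267). They were the 3 called, against 0.789% of all genes. The mimic values of GINS4 (5.80 and 5.71) lay at the edge of the background range, up to 5.71, so the size of its difference is uncertain. The median of the replication genes was -0.50, and 15 of 29 (51.7%) reached -0.5, against 4 of 43 (9.30%) of the mitotic members. The difference between the sets was not tested. On the brightest probesets the medians were -0.33 and -0.18.

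**Figure D5:**
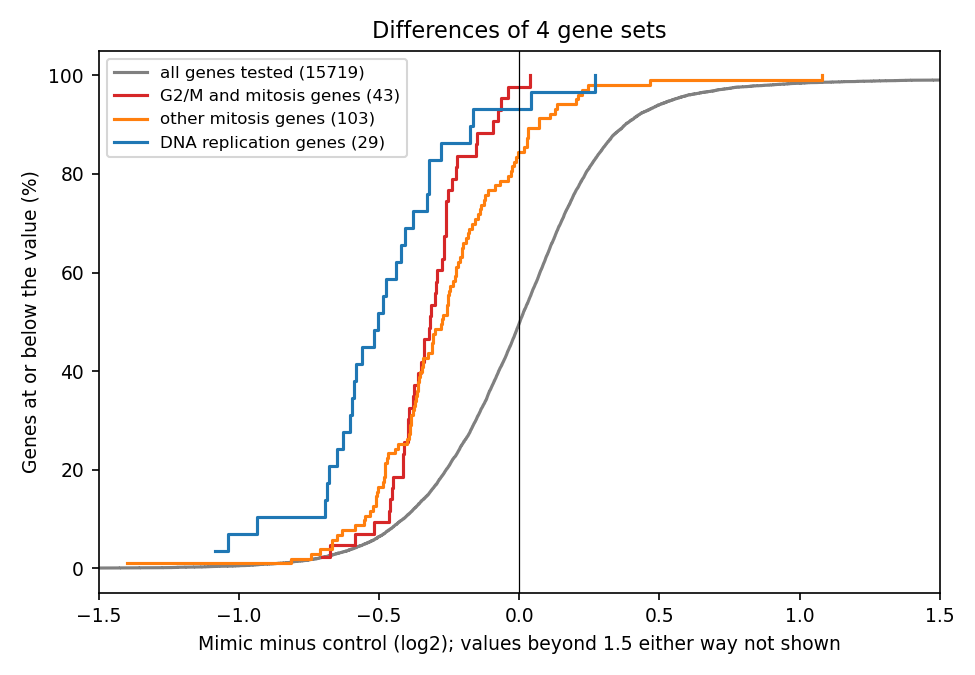
Share of genes (%) at or below each mimic minus control difference (log2) for 15719 genes tested, 43 G2/M and mitosis genes, 103 other mitosis genes and 29 DNA replication genes. The mitosis curves lie left of all genes, with medians of -0.32 and -0.27, and the replication curve lies further left, with a median of -0.50.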

How the data were processed

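Total RNA of 4 T-47D samples was labelled with a WT Terminal Labeling Kit and measured on Affymetrix arrays, per the labels' protocols. The authors deposited log2 values for 232479 probesets, and the submitters' processing notes name Partek, RMA and build hg18, with no version or order. The deposited arrays do not share 1 distribution. Symbols came from the platform annotation, updated through RefSeq: 190058 probesets had a current symbol, 25779 an updated one and 943 the file's own, while 2335 named several genes (not used) and 13364 none.

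Genes were summarised as the mean over their probesets at or above 4.08 (log2), the table's 25th percentile. The groups' difference was fitted in R 4.3.3 by limma 3.58.1 (lmFit, eBayes, two-sided, 2 residual degrees of freedom, 5.29 with the prior). In simulated data it called 11 of 50 genes lowered by 1 (log2) and 39 of 50 lowered by 2. Of genes raised by 1 and by 2 it called 8 and 33 of 50, with 2 false calls. Smaller changes, such as those of the members, were not simulated. Single probesets were tested likewise. The floor left out 13 of 778 member probesets. Figures used matplotlib 3.10.9. The 15 alternatives covered normalization, filter, probeset summary, variance prior, threshold, a replicate block and each array left out. Members and lists were chosen with earlier results of these data known. Full values were given for the 12 members with the smallest p, the 3 with the largest, any above 0, and CCNB1, CDK1, PLK1, AURKA, TOP2A, MKI67 and FOXM1. Of each related list the gene with the smallest p and any called gene were named, with ANAPC4 and MASTL added after their values were seen. The number of arrays limits precision.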

Additional observations from a re-analysis of the deposited data

How the results depend on the processing

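The sign of the members' median held under all 15 alternatives, and 0 members were called higher in any of them. The median was -0.18 on the brightest probesets (related genes -0.17, DNA replication genes -0.33), and with an array left out it ran from -0.41 to -0.22 (-0.37 to -0.22 and -0.60 to -0.40). Members called lower, 0 in the report, numbered 1 with quantile normalization (2.33%, all genes 1.41%) and 3 without the floor (6.98%, 5.40%). They numbered 9 with an intensity trend (20.9%, 6.79%) and 2 at an adjusted p under 0.1 (4.65%, 3.35%). Related genes called lower, 1 in the report, numbered 2, 19, 24 and 6 in that order, 0 with equal array medians, the median of probesets or the brightest probeset, and 0 to 12 with an array left out. Member probesets called lower, 1 in the report, numbered 26 with the trend, 0 with probesets above the table median and 0 with any array left out. The share of all probesets called was not computed for these settings, so those counts are not given. The replicate block called 0 members and 4 related genes lower, against 1.24% of all genes. Over all genes 124 were called lower and 239 higher, and 7 to 1067 and 115 to 983 under the alternatives. Replicate differences correlated between the groups across all genes (r = 0.44) and across the 43 members (r = 0.66). The submitters call the samples paired and do not say that the numbers mark the pairs. With an array left out, the lone array of its group is assumed to vary like the other group. Among the members with full values given, signs turned for AURKB (0.025 with cyclic loess, -0.090 to 0.013 with an array left out), MKI67 (0.0084, and -0.29 to 0.16), BUB3 (-0.016 to 0.090) and, on the brightest probeset, MKI67 (0.013), CDK1 (0.10) and CENPF (0.035). On the brightest probeset NDC80, CDC25B, KIF11 and ASPM were also above 0, against a difference below 0 in the report. The cause was not tested.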
